A study of Mus musculus with 6 samples.

Results

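Aldehyde dehydrogenases were compared in brown adipose tissue (BAT) of wild-type (WT) and miR-22 knockout (KO) mice. The set held 10 genes chosen by symbol, *Aldh2*, *Aldh1b1*, *Aldh4a1*, *Aldh6a1*, *Aldh7a1*, *Aldh1l2*, *Aldh1l1*, *Aldh9a1*, *Aldh3a2* and *Aldh3b2*, and every array probe whose RefSeq accession belonged to one of them. These were 19 of the 56605 probes on the array and 10 of the 23462 genes that a probe could be matched to. BAT was taken from 3 WT and 3 KO males aged 8 weeks, and total RNA was hybridized with the dye Cy3 to Agilent mouse arrays, 1 mouse per array. The KO mice lack miR-22 in every tissue and throughout life, so the arrays cannot separate an effect within brown adipocytes from one that began elsewhere. The paper describes the WT mice of this comparison as littermate controls. The labels do not say which mice shared a litter. BAT is a mixture of cells, and fewer cells of a type and less RNA per cell cannot be told apart in it.

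Aldehyde dehydrogenases oxidize aldehydes to carboxylic acids, or to acyl-CoA in the case of *Aldh6a1*, with NAD or NADP as the electron acceptor. Some members clear reactive aldehydes from ethanol and from peroxidized lipids, others are a fixed step of amino acid or carnitine metabolism, others release one-carbon units from folate, and others act on the long-chain aldehydes of membrane and droplet lipids. BAT is rich in mitochondria and lipid droplets, the compartments in which many of these enzymes work. The microRNA that the KO mice lack pairs with transcripts mainly through bases 2 to 8 of its mature strand, the seed, which are in capitals in the RefSeq sequences of both strands, shown because they are what was deleted. They lie on the plus strand of GRCm38.p6, miR-22-3p at chr11:75463772-75463793 and miR-22-5p at chr11:75463734-75463755.
mmu-miR-22-3p: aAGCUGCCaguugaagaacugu
mmu-miR-22-5p: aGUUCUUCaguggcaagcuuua
No transcript sequences were used here, so the aldehyde dehydrogenases were not searched for matches to these seeds.

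All levels below are log2 ratios of a probe's signal to the 75th percentile of the spots on that array, so that 0 is the level of that percentile, and all differences are KO minus WT on that log2 scale. Levels of different probes are not comparable with each other, because each probe binds its target with its own strength. The scanner software marked some spots as outliers, which were left out at first and then kept. The 75th percentile lay between 1435 and 2633 units of intensity, no spot was saturated, and 55.8 to 66.5% of the spots of an array were well above background. The software marked 17.1% of the spots of the third WT mouse and 15.1% of those of the first KO mouse, and 4.87 to 6.12% elsewhere. No probe matched miR-22 itself. The host transcript, *Mir22hg*, read 1.20, 1.69 and 1.22 in WT mice and 2.02, 2.11 and 2.23 in KO mice, so that every KO mouse lay above every WT mouse. The difference of 0.75 passed an unadjusted threshold of 0.05 (unadjusted p = 0.00486 from limma, adjusted p = 0.136) and not the adjusted one. The probe did not show a loss, and whether it lies within the deleted part was not tested.

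All 13 brown adipocyte markers were above background on all 6 arrays, *Ucp1*, the uncoupling protein, among them. Their mean level was 2.51, 2.82 and 2.65 in WT mice and 2.46, 2.16 and 2.64 in KO mice, a difference of -0.24. That of 10 genes shared by all adipocytes was 4.22, 4.54 and 4.28 against 3.93, 3.96 and 4.44, likewise a difference of -0.24. In both lists the first and second KO mice were below every WT mouse and the third was not. The mean of 20 skeletal muscle genes was 2.05, 1.20 and -5.02 in WT mice and -0.52, 3.17 and 1.13 in KO mice, so the third WT mouse stood apart and the groups overlapped. The white adipocyte list had a mean of -3.23, -3.16 and -3.28 in WT mice and -2.98, -2.95 and -2.70 in KO mice, so it lay higher in every KO mouse, by 0.35 on average. The lymphocyte list did so too, with -4.67 to -4.29 in KO mice against -5.19 to -4.68 in WT mice. Only 6 of the 8 white adipocyte markers and 5 of the 9 lymphocyte markers were above background on all 6 arrays. The list means take in the dim ones and do not show that the detected markers lay higher in every KO mouse. Of the 6 white adipocyte markers tested with marked spots kept, 2 had a difference below 0. Markers of nerve and Schwann cells differed by -0.29 and those of epithelium by 0.33, with groups that overlapped, and the erythroid, macrophage and endothelial lists by -0.08 to 0.15. In the white adipocyte list *Tcf21* was above background on no array and *Wt1* on 2 arrays. Among lymphocyte markers *Ms4a1* was above it on none, and *Cd79a* on 1 array. Among epithelial markers *Krt5*, *Krt14*, *Krt8* and *Cldn4* were above it on none, and *Epcam* and *Cdh1* on 2 arrays each.

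In KO mice *Aldh2*, the enzyme of acetaldehyde oxidation, and *Aldh4a1*, an enzyme of proline breakdown, each had 1 probe at 0.654 and 0.650 of the WT level, lower at an unadjusted p under 0.05 and not after adjustment. With marked spots kept, *Aldh9a1*, an enzyme of carnitine synthesis, joined them at 0.744. The other members did not pass the test by any probe in these settings, although most of their differences lay below 0. Of the 19 probes, 17 were well above background on at least 3 arrays and 14 of these on all 6. After marked spots were left out, 13 probes of 9 genes had at least 2 values in each group and were tested with limma. Of these, 2 were lower in KO mice at an unadjusted p under 0.05, the threshold named in the study's methods, 1 of *Aldh2* and 1 of *Aldh4a1*, and 0 were higher. Over all 31238 probes tested, 6.74% were lower and 9.7% higher by the same rule, and 2 of 13 is too small a count to read against these shares. After Benjamini-Hochberg adjustment over all probes 0.109% passed, and 0 of the 13 did. The smallest adjusted p among the 13 was 0.148 from limma, 0.262 from SAM and 0.203 from the methods' t-test. Unadjusted, SAM placed 2 of 11 probes without a marked spot lower, where 5.16% of all such probes were lower. The methods' t-test placed 3 of 13 lower, adding A_55_P2719842 of *Aldh3a2*, where 7.59% of all probes were lower. Leaving out the third WT mouse, which stood apart in the muscle markers, gave 2 of 13 as well. In that fit 5.41% of all probes were lower and 8.29% higher. Of the 13 differences 10 were below 0, with a median of -0.24. Over all probes 48.3% were below 0, with a median of 0.02. Among the 10 were A_52_P123230 of *Aldh4a1*, A_52_P498193 of *Aldh1l2* and A_66_P116496 of *Aldh3a2*. These met the background filter through the 3 WT mice, with only 1 or 2 KO mice above background, which favours a lower KO level. Of 10 probes above background on all 6 arrays 7 were below 0, where 49.5% of all such probes were. The brown and shared adipocyte lists differed by -0.24 each, the nerve list by -0.29 and the white adipocyte list, dim markers included, by 0.35. The lymphocyte list differed by 0.36 and the epithelial list by 0.33, dim markers included. The largest difference was 1.85 for skeletal muscle, where the third WT mouse stood apart. The part of these cell types in the median of the 13 probes was not tested. In 5 of the 13 probes every KO mouse lay below every WT mouse and in 0 every KO mouse lay above. Each pattern held for 13.8% of all probes, and the dim probe A_66_P116496 was among the 5.

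Keeping the marked spots brought in 4 more probes, among them the remaining *Aldh2* probes and a second *Aldh9a1* probe. Of the 17 probes then tested, which stand for 9 genes, 15 had a difference below 0, with a median of -0.25. Of all 35651 probes 50.8% were below 0, with a median of -0.008. The dim probes A_52_P123230, A_52_P498193 and A_66_P116496 were again among the 15. At an unadjusted p under 0.05, 3 of the 17 were lower, where 8.07% of all probes were lower and 9.3% higher. Again 0 passed the adjusted threshold, which 0.143% of all probes passed. Every KO mouse lay below every WT mouse in 7 of the 17 probes and above in 0, where the shares over all probes were 13.6 and 11.9%. Of the 114 spots of the 19 probes, 18 were marked, and they fell on 6 probes. The third KO mouse gave the highest KO value for 8 of the 17 probes, the second for 6 and the first for 3. No such count was made over all probes.

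**Figure D1:**
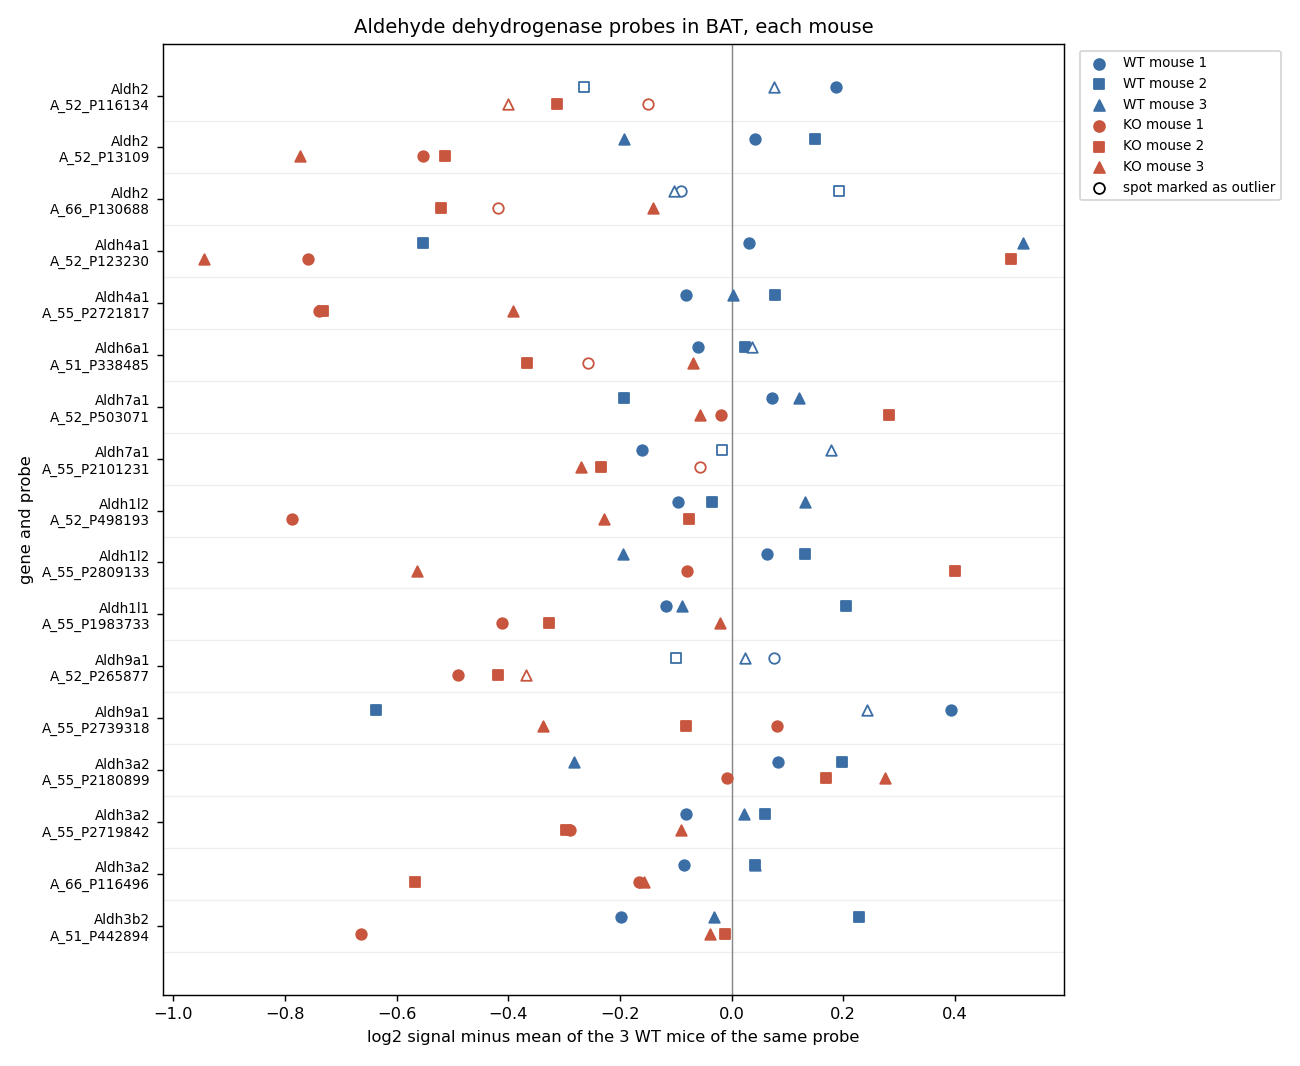
Level of each aldehyde dehydrogenase probe in each mouse, on the x axis as the log2 signal minus the mean of the 3 WT mice of the same probe, with marked spots kept. Rows are the 17 probes well above background on at least 3 arrays, blue symbols are WT mice, red symbols KO mice, the shape gives the mouse and open symbols are spots marked as outliers. In 7 rows all red symbols lie left of all blue ones, and in 0 rows to the right.

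*Aldh2* encodes the mitochondrial enzyme that oxidizes acetaldehyde and also aldehydes from lipid peroxidation such as 4-hydroxynonenal. Its probe A_52_P13109 carried no marked spot and read -1.38, -1.28 and -1.62 in WT mice and -1.98, -1.94 and -2.20 in KO mice. The groups did not overlap, and the third KO mouse was lowest. The difference was -0.61 (standard error 0.17), a KO level of 0.654 of the WT level, with an unadjusted p of 0.0076 and an adjusted p of 0.153 from limma. The other *Aldh2* probes could be tested only with marked spots kept. A_66_P130688 read 4.50, 4.79 and 4.49 in WT mice, all 3 of them marked, and 4.17, 4.07 and 4.45 in KO mice. Its groups did not overlap either, but the third KO mouse came close to the WT mice, and the difference of -0.36 (standard error 0.17) had an unadjusted p of 0.074 and an adjusted p of 0.328 from limma. Without the third KO mouse it was -0.47 with an unadjusted p of 0.0369. A_52_P116134 read 3.56, 3.11 and 3.45 against 3.22, 3.06 and 2.97, where the first KO mouse lay above the second WT mouse. Its difference was -0.29 (standard error 0.18), with an unadjusted p of 0.143, and without the second WT mouse -0.42 with an unadjusted p of 0.0426. After quantile normalization with marked spots kept, these differences shrank to -0.10 for A_66_P130688 (unadjusted p = 0.397) and -0.076 for A_52_P116134 (unadjusted p = 0.741). The 3 probes lay on the same side of 0, with 1 past the unadjusted threshold.

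*Aldh1b1* encodes a second mitochondrial acetaldehyde dehydrogenase. Its sole probe was well above background on 1 array, that of the second KO mouse, and was not tested. It read -7.77, -8.14 and -7.72 in WT mice and -6.67, -5.08 and -7.97 in KO mice. None of the 3 WT values was well above background, and the KO mean did not exceed the lowest signal called above background on those arrays, so no fold is given.

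*Aldh4a1* encodes the mitochondrial dehydrogenase that turns pyrroline-5-carboxylate into glutamate, the step at which proline breakdown ends. Its probe A_55_P2721817 read 3.46, 3.62 and 3.55 in WT mice and 2.80, 2.81 and 3.15 in KO mice. Every KO mouse lay below every WT mouse, the third KO mouse least so, and none of the spots was marked. The difference was -0.62 (standard error 0.16), a KO level of 0.650 of the WT level, with an unadjusted p of 0.0067 and an adjusted p of 0.148 from limma. The other probe, A_52_P123230, was above background in all 3 WT mice and in 1 KO mouse. It read -4.97, -5.55 and -4.48 against -5.76, -4.50 and -5.94, with the second KO mouse next to the highest WT mouse. The difference was -0.40 with a standard error of 0.43 and an unadjusted p of 0.384, and without that KO mouse it was -0.85 with an unadjusted p of 0.0382. It was -0.13 without the third KO mouse, -0.14 without the third WT mouse and -0.22 without the first KO mouse, so single mice decided its size.

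*Aldh6a1* encodes methylmalonate-semialdehyde dehydrogenase, a mitochondrial enzyme of valine and pyrimidine breakdown. Its single probe read 3.71, 3.79 and 3.80 in WT mice and 3.51, 3.40 and 3.70 in KO mice, with the third WT mouse and the first KO mouse marked. The groups did not overlap, although the third KO mouse was next to the first WT mouse. Without the marked spots 2 values a group remained and the difference was -0.20 (standard error 0.22, unadjusted p = 0.402 from limma). With them it was -0.23 (standard error 0.15, unadjusted p = 0.162). After quantile normalization the difference was gone, at -0.00058 without the marked spots (unadjusted p = 0.997) and -0.00022 with them (unadjusted p = 0.999).

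*Aldh7a1* encodes the dehydrogenase of lysine breakdown, also called antiquitin. Its probe A_52_P503071 read -3.53, -3.80 and -3.48 in WT mice and -3.62, -3.32 and -3.66 in KO mice. The groups overlapped, and the difference of 0.07 had a 95% confidence interval from -0.34 to 0.48. The sign of this difference turned under other scalings, to -0.12 after quantile normalization. The second probe, A_55_P2101231, was tested only with marked spots kept and read 1.53, 1.68 and 1.87 against 1.64, 1.46 and 1.42. Its difference was -0.19, with an interval from -0.56 to 0.19.

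*Aldh1l1* and *Aldh1l2* encode the cytosolic and the mitochondrial 10-formyltetrahydrofolate dehydrogenase, which release carbon dioxide from the folate pool and yield NADPH. The *Aldh1l1* probe read 2.58, 2.90 and 2.61 in WT mice and 2.28, 2.37 and 2.67 in KO mice. The first and second KO mice lay below every WT mouse and the third did not, and the difference was -0.25 (standard error 0.18, unadjusted p = 0.201 from limma). It was -0.15 without the second WT mouse, -0.10 after quantile normalization and -0.086 in the authors' processed values. Of the *Aldh1l2* probes, A_55_P2809133 read -4.24, -4.17 and -4.50 in WT mice and -4.38, -3.90 and -4.86 in KO mice. Both the highest and the lowest of these values came from KO mice, and the difference was -0.08 with an interval from -0.69 to 0.53. Without the third KO mouse it was 0.16. A_52_P498193 was above background in all 3 WT mice and in 1 KO mouse, and read -5.13, -5.07 and -4.90 against -5.82, -5.11 and -5.26. Its difference of -0.36 (standard error 0.22) had an unadjusted p of 0.137, and without the first KO mouse it was -0.15 with an unadjusted p of 0.45.

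*Aldh9a1* encodes a cytosolic enzyme of carnitine synthesis that oxidizes 4-trimethylaminobutyraldehyde. Its probes gave different answers. A_52_P265877 was marked in all 3 WT mice and in the third KO mouse and was tested only with those spots kept. It read 3.41, 3.24 and 3.36 in WT mice and 2.85, 2.92 and 2.97 in KO mice, so that the groups lay apart and the KO values were close together. The difference was -0.43 (standard error 0.14), a KO level of 0.744 of the WT level, with an unadjusted p of 0.0179 and an adjusted p of 0.2 from limma. Leaving out 1 mouse at a time took the unadjusted p over 0.05 when the first WT mouse (0.0603), the third WT mouse (0.056) or the first KO mouse (0.0624) was left out. After quantile normalization the difference was -0.23 with an unadjusted p of 0.172. A_55_P2739318 read -0.08, -1.11 and -0.23 against -0.39, -0.55 and -0.81, with the second WT mouse below all KO mice. The spot of the third WT mouse was marked, and the difference was 0.01 without that spot (95% confidence interval from -0.80 to 0.82) and -0.11 with it.

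*Aldh3a2* encodes the fatty aldehyde dehydrogenase of the endoplasmic reticulum, the enzyme lacking in Sjögren-Larsson syndrome. It had the most probes, and none of their spots was marked. A_55_P2719842 read 1.57, 1.71 and 1.67 in WT mice and 1.36, 1.35 and 1.56 in KO mice. A_66_P116496, above background in all 3 WT mice and in 2 KO mice, read -4.44, -4.32 and -4.32 against -4.52, -4.93 and -4.52. In both probes every KO mouse was below every WT mouse, with the closest KO and WT mice nearly level. Their differences were -0.23 (standard error 0.15, unadjusted p = 0.172 from limma) and -0.30 (standard error 0.17, unadjusted p = 0.129). By the methods' t-test A_55_P2719842 passed the unadjusted threshold, with a standard error of 0.08, an unadjusted p of 0.0475 and an adjusted p of 0.324. A_55_P2180899 lay on the other side of 0, with -0.67, -0.55 and -1.03 in WT mice, -0.76, -0.58 and -0.48 in KO mice and a difference of 0.15 (standard error 0.18, unadjusted p = 0.455). It fell to 0.0047 without the third WT mouse, the lowest of the 6, and was 0.43 with the slide row as a block. Without the second KO mouse the difference of A_66_P116496 was -0.16. The remaining probe, A_55_P2929644, was above background on no array.

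*Aldh3b2* encodes a dehydrogenase of long-chain aldehydes that in mouse is found at lipid droplets. Its probe read -0.98, -0.55 and -0.81 in WT mice and -1.44, -0.79 and -0.82 in KO mice. The first KO mouse was below all others and the remaining KO mice fell among the WT values, and the difference was -0.24 (standard error 0.23, unadjusted p = 0.333 from limma). Without the first KO mouse it was -0.025 with an unadjusted p of 0.907, and without the second WT mouse -0.12.

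**Figure D2:**
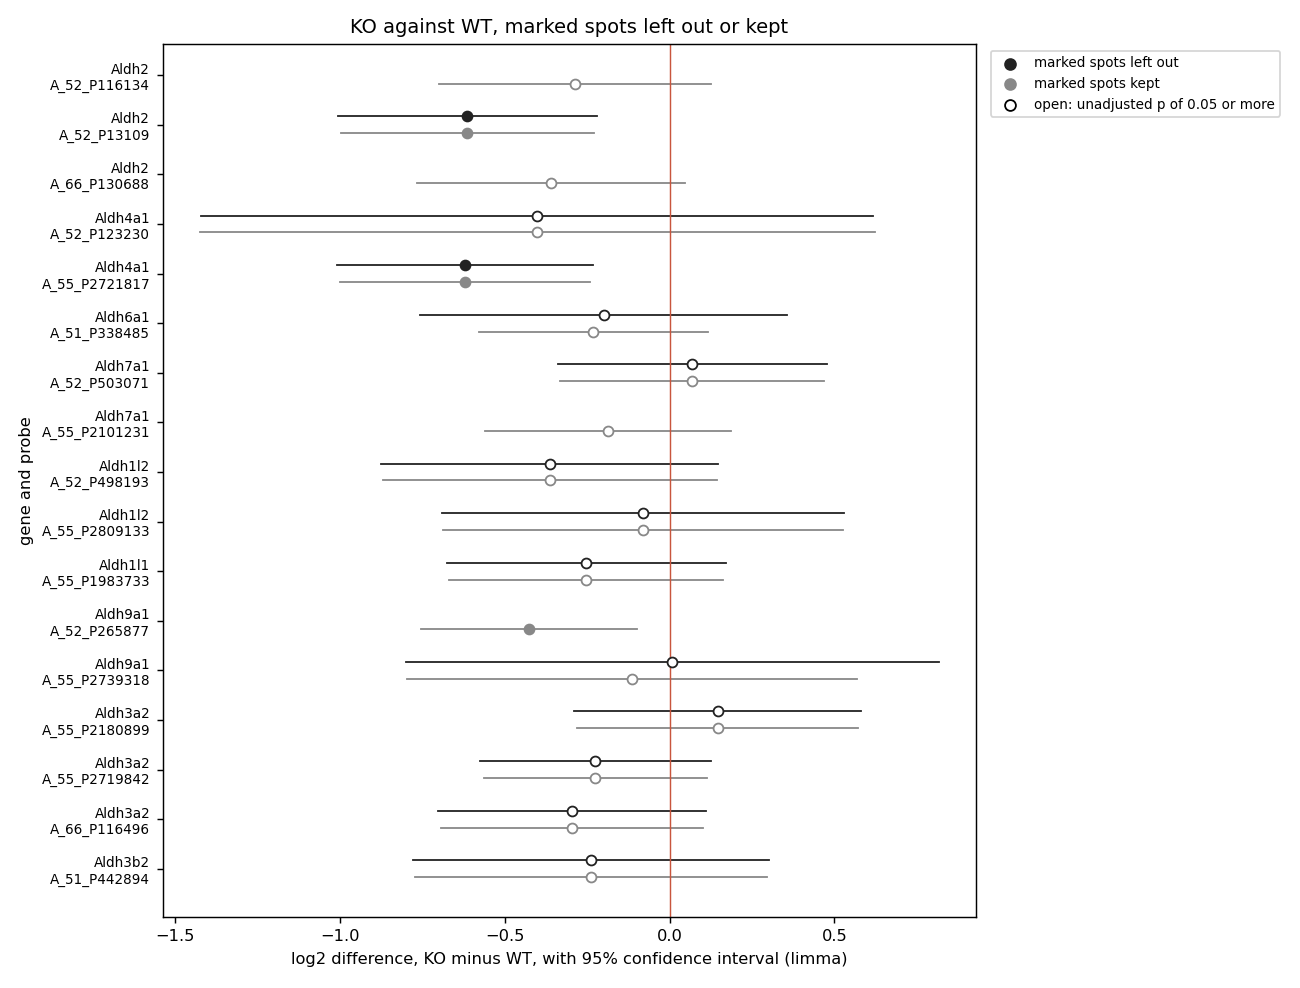
Difference between KO and WT mice for each aldehyde dehydrogenase probe, in log2 units on the x axis, with the 95% confidence interval from limma. Black marks leave out the spots marked as outliers, grey marks keep them, and filled points have an unadjusted p under 0.05. The filled points are A_52_P13109 of *Aldh2* and A_55_P2721817 of *Aldh4a1* in both settings and A_52_P265877 of *Aldh9a1* with marked spots kept.

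Probes of the same gene differed in how far they followed each other over the 6 arrays, which share the group difference and the scaling. Pearson's r between the *Aldh2* probe A_52_P13109 and A_66_P130688 was 0.69, but A_52_P116134 gave 0.57 with the former and 0.17 with the latter. Between A_55_P2719842 and A_66_P116496 of *Aldh3a2* it was 0.82, and between A_55_P2180899 and the other 2 tested *Aldh3a2* probes it was -0.16 and -0.37, between the *Aldh4a1* probes 0.13, between the *Aldh9a1* probes 0.32, between the *Aldh1l2* probes 0.16 and between the *Aldh7a1* probes -0.13. Whether the probes bind different transcripts was not tested.

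A fit that allowed for the slide row was less precise for *Aldh2*, *Aldh4a1* and *Aldh9a1*, and only the *Aldh2* difference shrank. The standard error rose from 0.17 to 0.24 for A_52_P13109 of *Aldh2* and from 0.16 to 0.26 for A_55_P2721817 of *Aldh4a1*. For A_52_P265877 of *Aldh9a1*, with marked spots kept, it rose from 0.14 to 0.22. Whether the position of an array changed its signal was not tested. All arrays shared a slide, with the first and second WT mice in one row and the third WT mouse and all KO mice in the other. With the row as a block, the difference of the *Aldh2* probe A_52_P13109 was -0.42 with an unadjusted p of 0.128, and that of the *Aldh4a1* probe A_55_P2721817 was -0.62 with an unadjusted p of 0.0514. The count of probes past the unadjusted threshold was then 0 of 13, where 2.47% of all probes were lower and 5.97% higher in the same fit. Within a row a single WT mouse was left to set against the KO mice. In the same fit with marked spots kept, the *Aldh9a1* probe A_52_P265877 differed by -0.45 with an unadjusted p of 0.0896. Of 17 probes 1 passed, that of *Aldh4a1*, where 2.39% of all probes were lower and 5.48% higher. Over 28 settings with a value for these probes, the *Aldh2* difference ranged from -0.71 to -0.42 and had an unadjusted p under 0.05 in 25, and the *Aldh4a1* difference ranged from -0.74 to -0.41 and had one in 26. In none of the settings did either reach an adjusted p under 0.05, the lowest being 0.0858 and 0.0887.

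The scaling between arrays changed how many probes passed. After quantile normalization 4 of the 13 were lower, A_66_P116496 of *Aldh3a2* (difference -0.51) and A_52_P498193 of *Aldh1l2* (-0.61) joining the others. The same 4 were lower among 12 probes in the processed values that the authors deposited, where 11.2% of all 27497 probes were lower and 7.1% higher. The 2 that joined are dim probes that met the background filter through the 3 WT mice. In KO mice A_66_P116496 was above background in 2 and A_52_P498193 in 1, so the rise to 4 cannot be read as more lower genes. Over all probes, 3020 (9.67%) were lower and 2008 (6.43%) higher after quantile normalization, against 2104 (6.74%) and 3031 (9.7%) before it.

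**Figure D3:**
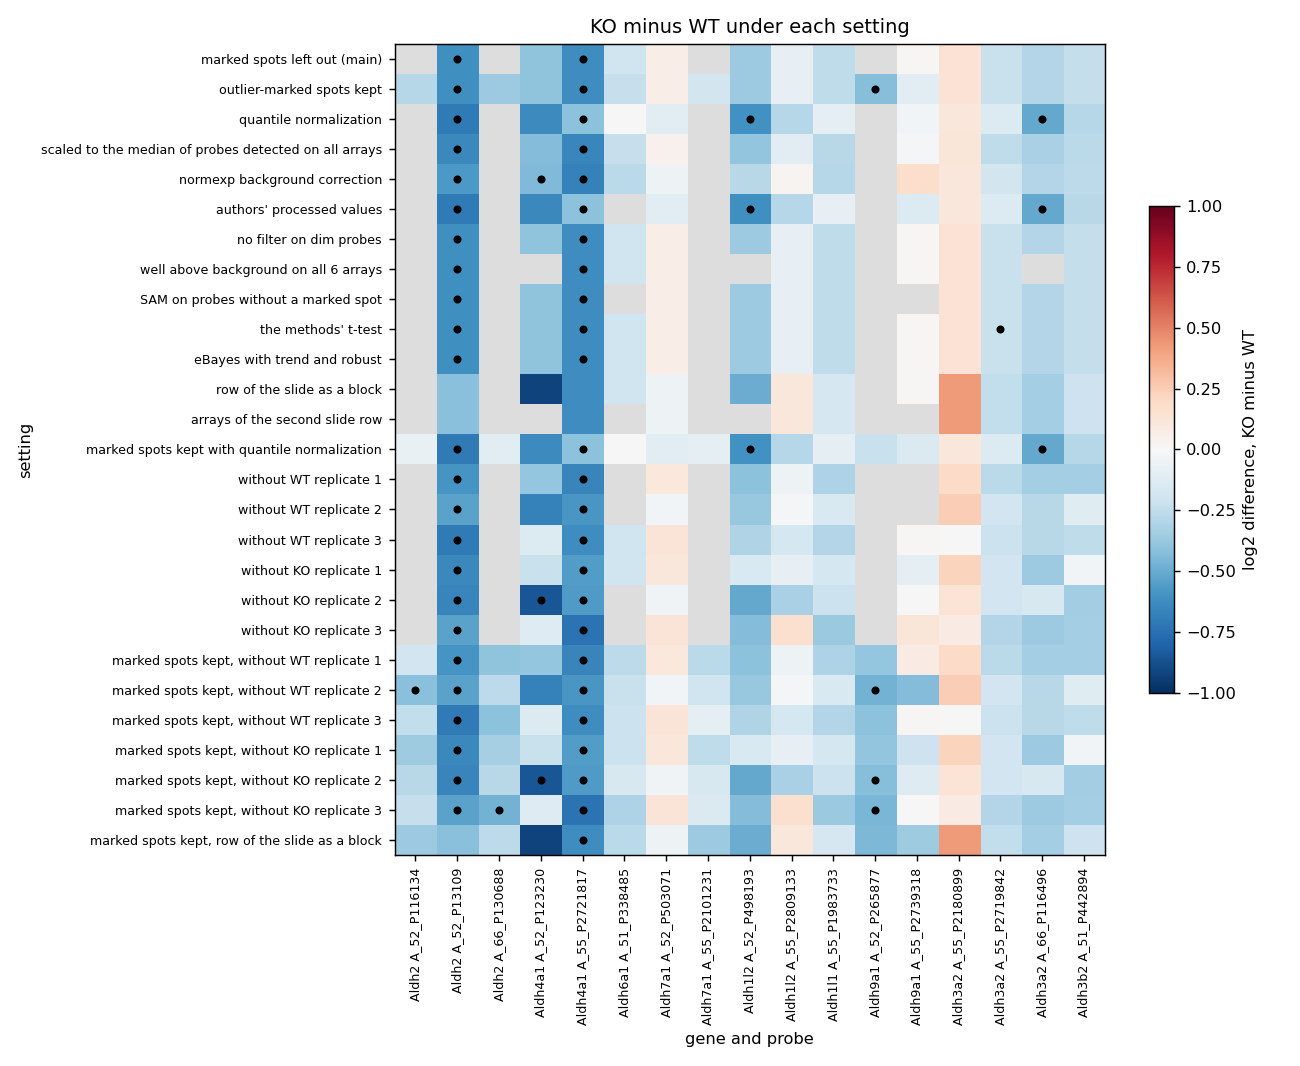
Difference between KO and WT mice for each probe (columns) under each setting (rows), on a colour scale from -1 to 1 log2 units in which blue is lower in KO mice, grey has no value and black dots mark an unadjusted p under 0.05. The columns of A_52_P13109 and A_55_P2721817 are blue in all 27 rows drawn, without a dot in the rows that use the row of the slide, except A_55_P2721817 with marked spots kept.

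The patterns over the 6 arrays were compared with those of 5131 probes that had no marked spot, were above background on all arrays and had an SD of at least 0.3. The genes most like A_52_P13109 of *Aldh2* were *Ogfod2*, *Tfr2* and *Cdc42ep5*, with a Pearson's r of 0.996, 0.995 and 0.994. Those most like A_55_P2721817 of *Aldh4a1* were *Hic1*, *Col11a2* and *Gm11696*, with 0.995, 0.989 and 0.988. With 6 arrays and a difference between the groups in each of these probes, such values are a description only.

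For the remaining enzymes each gene stood by its brightest testable probe, and 8.82% of 14711 genes were lower and 10% higher at an unadjusted p under 0.05, with a median difference of -0.03. Counted in this way, 2 of 9 aldehyde dehydrogenases of the set were lower, *Aldh2* and *Aldh4a1*, 0 were higher and the median was -0.23. With marked spots kept 2 of 9 were lower again, but these were *Aldh4a1* and *Aldh9a1*, since the brightest *Aldh2* probe was then A_66_P130688, and 11.1% of 16110 genes were lower and 9.47% higher. None of the genes named in the rest of this account passed the adjusted threshold in these settings, and the small counts per list moved with the setting.

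Among the other aldehyde dehydrogenases of the family 2 of 10 tested genes were lower and 0 higher. *Aldh16a1*, an unusual member without a clear catalytic role, read 1.42, 1.66 and 1.58 in WT mice and 1.05, 0.96 and 1.09 in KO mice, a difference of -0.52 (unadjusted p = 0.00585 from limma, adjusted p = 0.127). *Aldh1a7*, a close relative of the retinaldehyde dehydrogenases, read 2.18, 2.63 and 2.02 against 1.69, 1.74 and 1.49, a difference of -0.63 (unadjusted p = 0.013, adjusted p = 0.162). In both the groups did not overlap. *Aldh5a1*, which oxidizes succinate semialdehyde in GABA breakdown, differed by -0.50 with an unadjusted p of 0.0592. The differences of the 7 others were above 0 and did not pass. They were 0.19 for *Aldh1a2*, 0.23 for *Aldh1a1* and 0.47 for *Aldh1a3*, which make retinoic acid from retinaldehyde, 0.22 for *Aldh3b1*, 0.21 for *Aldh3b3*, 0.22 for *Aldh18a1*, which makes pyrroline-5-carboxylate for proline synthesis, and 0.24 for *Aldh8a1*. The median of the 10 was 0.21. *Aldh3a1* was on the array and was not tested.

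Next to *Aldh2* stand the enzymes that make acetaldehyde and use acetate. Of 5 genes 2 were tested, and *Acss2*, which turns acetate into acetyl-CoA in the cytosol and nucleus, was lower. It read 2.89, 3.76 and 2.82 in WT mice and 1.99, 2.23 and 2.11 in KO mice, a difference of -1.05 (unadjusted p = 0.00535 from limma, adjusted p = 0.123). With marked spots kept all 5 could be tested and 2 were lower, the second being catalase, *Cat*, with -0.52. Of 8 alcohol dehydrogenases and aldehyde reductases tested, 1 was lower and 2 were higher. *Aox1*, an aldehyde oxidase that needs molybdenum, had a difference of -0.65, with all KO mice below all WT mice. *Cbr3*, a carbonyl reductase, differed by 0.57 and *Adh1*, an alcohol dehydrogenase, by 1.66, with the second WT mouse at -0.51 and the other mice from 1.33 to 2.20 and 2 of its spots marked. Once these were kept, *Adh1* stood by a brighter probe, A_52_P629895, which differed by 0.94.

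Next to *Aldh4a1*, 7 proline and hydroxyproline enzymes were tested, of which 0 were lower and 1 was higher, a count that was 0 in 15 of 28 other settings. This was *Got2*, the mitochondrial aspartate aminotransferase, with a difference of 0.70. The first KO mouse read 1.35, next to the highest WT mouse, and the others 2.34 and 2.21. Among 5 tested genes of valine and pyrimidine breakdown, the pathways of *Aldh6a1*, 0 passed in either direction and the median was -0.11. With marked spots kept, 2 of 7 were lower, *Acad8* (-0.49) and *Hibadh* (-0.38), both of valine breakdown. Of 4 tested genes of lysine breakdown and carnitine synthesis, the pathways of *Aldh7a1* and *Aldh9a1*, 4 had a difference below 0. Over all genes tested 52.9% did, and 4 genes are too few to read against that share. Of the 4 genes 1 passed. This was *Gcdh*, glutaryl-CoA dehydrogenase, in which every KO mouse lay below every WT mouse, with a difference of -0.48 (unadjusted p = 0.00673 from limma, adjusted p = 0.132). With marked spots kept *Tmlhe*, the first enzyme of carnitine synthesis, also passed, with -0.37.

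Next to *Aldh1l1* and *Aldh1l2*, 17 folate one-carbon enzymes were tested, with 2 lower, 3 higher and a median of 0.13. The lower ones were *Mthfd2l*, a mitochondrial methylenetetrahydrofolate dehydrogenase, with -0.46, and *Gcsh*, a protein of the glycine cleavage system, with -0.43. The higher ones were *Mthfd1l*, the mitochondrial formyltetrahydrofolate synthetase, with 1.05, *Shmt1*, the cytosolic serine hydroxymethyltransferase, with 0.75, and *Fpgs*, which adds glutamates to folate, with 0.46. Next to *Aldh3a2* and *Aldh3b2*, 6 fatty aldehyde and sphingolipid enzymes were tested, with 0 lower and 1 higher. This was *Far1*, which makes fatty alcohols from fatty acyl-CoA in peroxisomes, with a difference of 0.55. With marked spots kept *Sgpl1*, the sphingosine phosphate lyase that releases a fatty aldehyde, was lower, with -0.40.

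**Figure D4:**
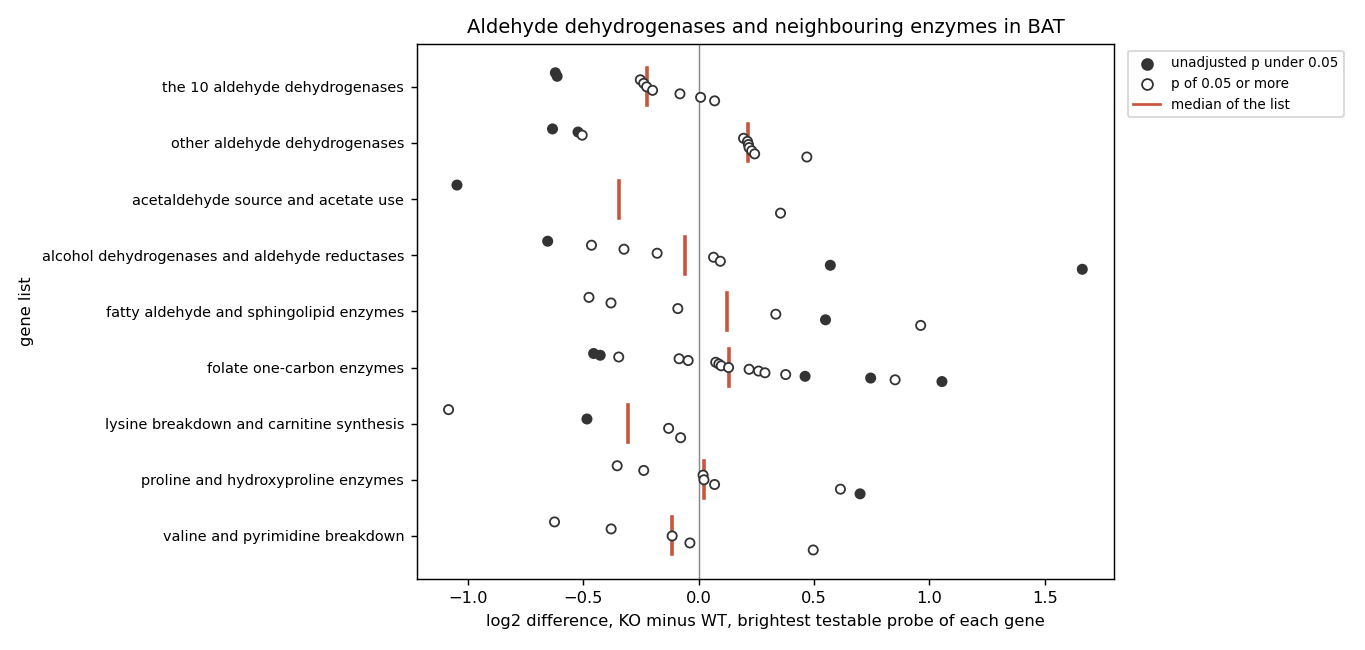
Difference between KO and WT mice, in log2 units on the x axis, for each tested gene of the 10 aldehyde dehydrogenases and of the lists of neighbouring enzymes (rows), each by its brightest testable probe with marked spots left out. Filled points have an unadjusted p under 0.05 and red lines are list medians, -0.23 for the 10 aldehyde dehydrogenases and 0.21 for the other members of the family.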

How the data were processed

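BAT RNA of 3 WT and 3 KO mice was measured on 6 arrays of a single slide. The authors deposited, per the file headers, Agilent Feature Extraction intensity values (version 11.5.1.1 in the headers, 10.7 in the submitters' processing notes), which are background-subtracted and not scaled between arrays. A further file of log2 values that the authors deposited for the same arrays was used as an alternative. Its normalization is not given in the sources used here, and its columns correlated with their own arrays at an r of at least 0.9998.

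Each processed signal was scaled to the 75th percentile over non-control spots on its array, as log2. Spots with either outlier mark of the software (non-uniform or population) were dropped. Probes well above background on at least 3 arrays, with 2 unmarked values a group, were tested two-sided with limma 3.58.1 (R 4.3.3, version 1.17.8 of the R package data.table) over all probes, with Benjamini-Hochberg adjustment. Intervals are 95%. The number of arrays limits the precision, and p-values rest on these mice only. Limma pulls the spread between the mice in each probe toward that of all probes. On simulated data of 31238 probes with 200 changed by 1.5 on the log2 scale, 45% were recovered after adjustment and 95.5% without it. Of the unchanged probes 5.18% were called without adjustment. The tested aldehyde dehydrogenase probes differed by -0.62 to 0.15. Changes of that size were not simulated, so these shares do not tell how many such changes would be recovered.

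The files carry no gene symbols. RefSeq accessions named 33767 probes (59.7%) through RefSeq on GRCm38.p6, and the files' own build is mm9. The aldehyde dehydrogenases, gene lists and tests were chosen with earlier results of these data known. Named were all probes of the set, *Mir22hg*, every tested gene of the other aldehyde dehydrogenases, up to 3 genes per direction and list with the smallest unadjusted p under 0.05, undetected markers (1 of them is not reported here) and the 3 genes most like *Aldh2* and *Aldh4a1*. *Ucp1*, *Cat*, *Acad8*, *Hibadh*, *Tmlhe* and *Sgpl1* were named after their values were seen.

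Alternatives were marked spots kept, other scalings (quantile, median of detected probes, the authors' values), normexp background correction (offset 50), other filters on dim probes, other tests (SAM, the methods' t-test, and limma with a trended, robust prior), the slide row, 1 value per gene, and leaving out each array. Keeping marked spots together with a left-out array or the row block was chosen after seeing the data.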

Additional observations from a re-analysis of the deposited data

How the results depend on the processing

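No paired analysis was possible because the mice of both groups carry no shared numbers. Limma placed 2 aldehyde dehydrogenase probes lower in KO mice by unadjusted p. Of the alternatives, 4 were lower after quantile normalization, 4 in the authors' processed values and 4 with marked spots kept and quantile normalization. By the mean of a gene's probes 1 was lower (*Aldh2*, with *Aldh4a1* at an unadjusted p of 0.0619 from limma). With the slide row as a block 0 were lower, and 1 with marked spots kept as well. The arrays of the second slide row held a single WT mouse. There A_52_P13109 of *Aldh2* differed by -0.42 and A_55_P2721817 of *Aldh4a1* by -0.62. Leaving out each mouse in turn, with marked spots left out or kept, gave 2 to 4, where 4.53 to 9.11% of all probes were lower. The count of probes higher in KO mice was 0 in each of these settings. Over all probes the share lower was 9.67% after quantile normalization, 11.2% in the authors' values and 9.66% with marked spots kept and quantile normalization. It was 6.83% of genes by the mean of a gene's probes. With the slide row as a block it was 2.47% of probes, and 2.39% with marked spots kept as well.

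Over all probes, 2104 were lower, 3031 higher and 34 past the adjusted threshold. The lower count was 1340 with SAM, 772 with the row as a block, 477 in the second row, 1297 by the brightest probe per gene, 1005 by the mean of a gene's probes, 3444 with marked spots kept and quantile normalization, 851 with them kept and the row as a block, and 1200 (without the second WT mouse) to 3187 (marked spots kept, without the third KO mouse) with mice left out. The higher count was 2008 after quantile normalization, 1666 with normexp, 1953 in the authors' values, 1864 with the row as a block, 1345 in the second row, 1476 by the brightest probe, 1417 by the mean of probes and 1954 with marked spots kept and the row as a block. Past the adjusted threshold were 14 after quantile normalization, 65 with normexp, 102 in the authors' values, 10 without a filter on dim probes, 234 above background on all 6 arrays, 0 with SAM, 2 with the methods' t-test, 349 with a trended, robust prior, 7 with the row as a block, 4 in the second row, 15 by the mean of probes, 7 with marked spots kept and the row as a block, and 6 to 31 with mice left out. Fewer probes or arrays entered SAM, the second row and the counts by gene. The cause of the other shifts was not tested.

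Among the single probes, none that passed the unadjusted threshold changed sign. The difference of A_52_P503071 of *Aldh7a1* was -0.12 after quantile normalization, with marked spots left out or kept, -0.053 with normexp, -0.11 in the authors' values, -0.051 in every setting that used the row of the slide, and -0.037 to 0.13 with mice left out. That of A_55_P2809133 of *Aldh1l2* was 0.029 with normexp, 0.11 in the settings of the row, and -0.32 to 0.16 with mice left out. That of A_55_P2739318 of *Aldh9a1* was -0.11 with marked spots kept, -0.026 after quantile normalization, -0.022 when scaled to the median, -0.14 in the authors' values, -0.14 with marked spots kept and quantile normalization, -0.35 with them kept and the row as a block, and -0.43 to 0.12 with mice left out. The dim probes, above background in 1 or 2 KO mice only, limit what can be read for A_52_P123230, A_52_P498193 and A_66_P116496.

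For the 8 lists of neighbouring enzymes, 118 of 448 counts taken under other settings lay more than 1.5 times from the reported one. The other aldehyde dehydrogenases had 0 to 3 lower and 0 to 2 higher over 28 settings, the alcohol dehydrogenases and aldehyde reductases 0 to 2 in either direction, and the acetaldehyde and acetate enzymes 0 to 2 lower and 0 to 1 higher. Proline and hydroxyproline enzymes had 0 to 1 in either direction, folate enzymes 0 to 2 lower and 0 to 4 higher, valine and pyrimidine enzymes 0 to 2 lower and 0 to 1 higher, lysine and carnitine enzymes 0 to 2 lower and 0 to 1 higher, and fatty aldehyde enzymes 0 to 1 lower and 1 to 3 higher. With the slide row as a block, 1 count of lower genes was above 0, that of the alcohol dehydrogenases and aldehyde reductases.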
